A study of Mus musculus with 12 samples.

Results

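Immediate early genes are switched on within minutes of a stimulus and need no new protein synthesis for it. The set described here holds 10 such genes, chosen by name from the authors' deposited comparison table: Fos, Fosb, Jun, Junb, Jund, Egr1, Ier2, Btg2, Nr4a1 and Klf6. All 10 were found among the 13703 genes of that table and the 49315 genes of the count table. The samples were islets of wild-type NOD/ShiLtJ females, a mouse strain whose islets are infiltrated by lymphocytes and which becomes diabetic through autoimmunity. Treatment began at 9 weeks of age, while blood glucose was still normal, and was given weekly for 4 weeks, as an antibody against CD3 (2.5 mg/kg) in 6 libraries or as a control IgG in 6 libraries. CD3 passes on the signal of the T cell receptor. Islets were freed with collagenase P 2 to 3 days after the last dose, and polyadenylated RNA was sequenced. The labels do not say whether a library holds 1 mouse or a pool, and a p-value here reflects only how far these samples spread, which may be technical.

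Growth factors, calcium and stress signals reach these genes through MAP kinases and calcium-dependent kinases, which activate transcription factors already bound at their promoters, among them CREB at the cAMP response element (CRE) and SRF at the CArG box. Fos and Jun proteins pair to form the transcription factor AP-1. In beta cells, depolarization by glucose is a known stimulus, and enzymatic dissociation of a tissue is known to induce the same genes. All 12 libraries were made after such a digestion, so the level in undisturbed islets was not measured.

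Libraries held 10994337 to 19284740 counts in anti-CD3 and 11891132 to 17628347 in IgG, and the counts of a single member in a library from 128 to 7889. The libraries were mixtures of islet and exocrine RNA. The islet markers Ins1, Ins2 and Gcg were present in all 12 libraries, with a median normalized count for Ins1 of 35632 in anti-CD3 and 30912 in IgG. Acinar genes took 72.0% to 75.7% of the counts in anti-CD3 and 34.1% to 75.2% in IgG, where IgG 5 (57.8%) and IgG 6 (34.1%) stood apart. IgG 6 also had the highest T cell, B cell, macrophage, stromal and endothelial marker scores of the 12 libraries. Ptprc, the pan-leukocyte marker CD45, ran from 41.3 to 548 normalized counts in anti-CD3 and from 70.9 to 2339 in IgG. Cd3e, which encodes a CD3 chain, ran from 8.50 to 52.3 in anti-CD3 and from 19.1 to 142 in IgG.

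The promoter sequences below show where letters of the CRE, through which calcium and cAMP signals act, occur in members described further on. RefSeq promoters (GRCm38.p6) were used for 8 of the 10 members, and those of Egr1 and Ier2 were not examined. Each line gives the 250 bases before the annotated start, 5′ to 3′ on the gene's strand, and capitals mark CRE half-sites, the letters TGACG on either strand. The first 4 genes varied together, and Btg2 was the member whose groups did not overlap.
Fos, chr12:85473640-85473889, plus strand: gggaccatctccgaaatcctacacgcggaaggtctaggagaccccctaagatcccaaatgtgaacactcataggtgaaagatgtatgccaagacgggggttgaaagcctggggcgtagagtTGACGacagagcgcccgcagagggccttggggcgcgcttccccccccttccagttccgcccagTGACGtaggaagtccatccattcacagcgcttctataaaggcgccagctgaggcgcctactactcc
Fosb, chr7:19310046-19310295, minus strand: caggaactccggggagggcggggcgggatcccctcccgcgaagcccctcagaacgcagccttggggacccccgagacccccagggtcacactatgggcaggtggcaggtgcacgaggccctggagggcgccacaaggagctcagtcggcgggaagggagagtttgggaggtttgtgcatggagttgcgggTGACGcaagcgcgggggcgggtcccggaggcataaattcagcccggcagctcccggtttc
Junb, chr8:84978749-84978998, minus strand: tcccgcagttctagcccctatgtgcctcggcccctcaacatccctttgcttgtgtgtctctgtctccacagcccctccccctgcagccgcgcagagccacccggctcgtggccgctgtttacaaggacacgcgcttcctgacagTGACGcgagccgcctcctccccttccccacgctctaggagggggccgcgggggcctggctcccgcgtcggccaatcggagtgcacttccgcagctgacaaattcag
Nr4a1, chr15:101266596-101266845, plus strand: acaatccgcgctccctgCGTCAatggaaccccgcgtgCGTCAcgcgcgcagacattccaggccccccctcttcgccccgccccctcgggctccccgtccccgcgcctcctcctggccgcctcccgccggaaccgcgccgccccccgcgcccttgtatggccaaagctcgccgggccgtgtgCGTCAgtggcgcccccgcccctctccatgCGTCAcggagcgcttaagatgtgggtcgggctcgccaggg
Btg2, chr1:134079156-134079405, minus strand: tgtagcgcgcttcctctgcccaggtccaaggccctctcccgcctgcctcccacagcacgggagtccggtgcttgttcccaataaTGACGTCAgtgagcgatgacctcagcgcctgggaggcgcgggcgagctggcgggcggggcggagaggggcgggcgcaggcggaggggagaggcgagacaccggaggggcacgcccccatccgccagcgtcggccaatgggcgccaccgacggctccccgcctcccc

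A half-site was present in the promoters of 5 of these 8 members (Fos, Fosb, Junb, Nr4a1 and Btg2), and in 17.8% of the 32851 mouse promoters searched over the same length. Nr4a1 held 4, Fos 2, and Fosb and Junb 1 each. Btg2 was the only one of the 8 with the full palindrome TGACGTCA, which contains 2 overlapping half-sites and is found in 1.55% of all promoters searched. The windows of Jun, Jund and Klf6, not printed, held no TGACG on either strand. By the Pearson r described further on, Jun and Klf6 also varied together (0.86), as did Jun with Fos (0.67) and Fosb (0.73). Btg2 had r from -0.34 (Junb) to -0.06 (Fos) with Fos, Fosb, Junb and Nr4a1. A link between half-sites and covariation was not tested. These windows cannot test it, because Ier2 was not examined and the Jund window is not next to the start of the counted gene. The CArG box, found in 1.47% of promoters, and the AP-1 site TGANTCA, found in 6.75%, had no match in the 8 windows. The GC box GGGCGG, found in 32.7% of promoters, was present in Fos, Fosb, Jun, Btg2, Nr4a1 and Klf6. The CCAAT box, found in 33.8%, was present in Jun, Junb, Btg2 and Klf6, and the TATA box TATAAA, found in 12.4%, in Fos. Whether any motif is more frequent in the members than in promoters of like base content was not tested. Bases farther upstream were not searched, nor were the promoters of Egr1 and Ier2. The lack of a match therefore does not show that these genes lack such sites. The matches given here are letters in 1 window per gene and show no binding. The RefSeq start used for Jund lies upstream of the GENCODE start of that gene, so its window is not next to the start of the counted gene. The window of Nr4a1 lies inside the GENCODE gene, downstream of its outermost start, so its 4 half-sites are those before an internal start.

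On GRCm38, Fos (ENSMUSG00000021250) spans 85473890 to 85477273 on chromosome 12, Fosb (ENSMUSG00000003545) 19302696 to 19310051 on chromosome 7 and Jun (ENSMUSG00000052684) 95049034 to 95052222 on chromosome 4. Chromosome 8 carries Junb (ENSMUSG00000052837, 84974484 to 84978718), Jund (ENSMUSG00000071076, 70698949 to 70700616) and Ier2 (ENSMUSG00000053560, 84661331 to 84662852). Btg2 (ENSMUSG00000020423) spans 134075170 to 134079120 on chromosome 1, Nr4a1 (ENSMUSG00000023034) 101254269 to 101274795 on chromosome 15 and Klf6 (ENSMUSG00000000078) 5861482 to 5870394 on chromosome 13. Egr1 is ENSMUSG00000038418. All 10 are annotated as protein-coding, and a value sums the reads of a gene. Junb overlaps Prdx2 on the opposite strand, and Jun and Jund each overlap an antisense RNA gene. The sources used here do not say whether counting used strand, and reads in those overlaps cannot be told apart.

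The question for the 2 treatment groups was whether immediate early transcripts differed in level after the antibody. Of the 10 members 9 had a positive log2 fold change, against 44.8% of the 13115 genes tested, and the median was 0.61 for the members and -0.05 for all genes tested. By the main test, 0 of 10 passed (edgeR quasi-likelihood test, adjusted p under 0.05 over all genes), where 0.0762% of all genes did. At an unadjusted p under 0.05, 7 of 10 (Btg2, Ier2, Klf6, Jun, Jund, Egr1 and Junb) were higher and 0 lower, where 9.68% of all genes were higher and 8.68% lower (18.4% in either direction). DESeq2 called 3 of 10 as higher (Btg2, Ier2 and Klf6), with 2.75% of all genes called higher and 3.96% in either direction. The authors' deposited table has the same 3 with an adjusted p under 0.05, at 0.00742 for Btg2, 0.0225 for Klf6 and 0.0234 for Ier2, with 3.24% of its genes higher and past that threshold. Limma-voom with quality weights called 1, Btg2, with 0.32% of all genes called higher, and edgeR with no filter on low counts called 2, Btg2 and Ier2, with 0.49% called higher. Values below are the authors' normalized counts, which are counts divided by 1 size factor per library. A bulk library cannot tell more cells of a type from more RNA per cell, and this holds for every difference given here.

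**Figure D1:**
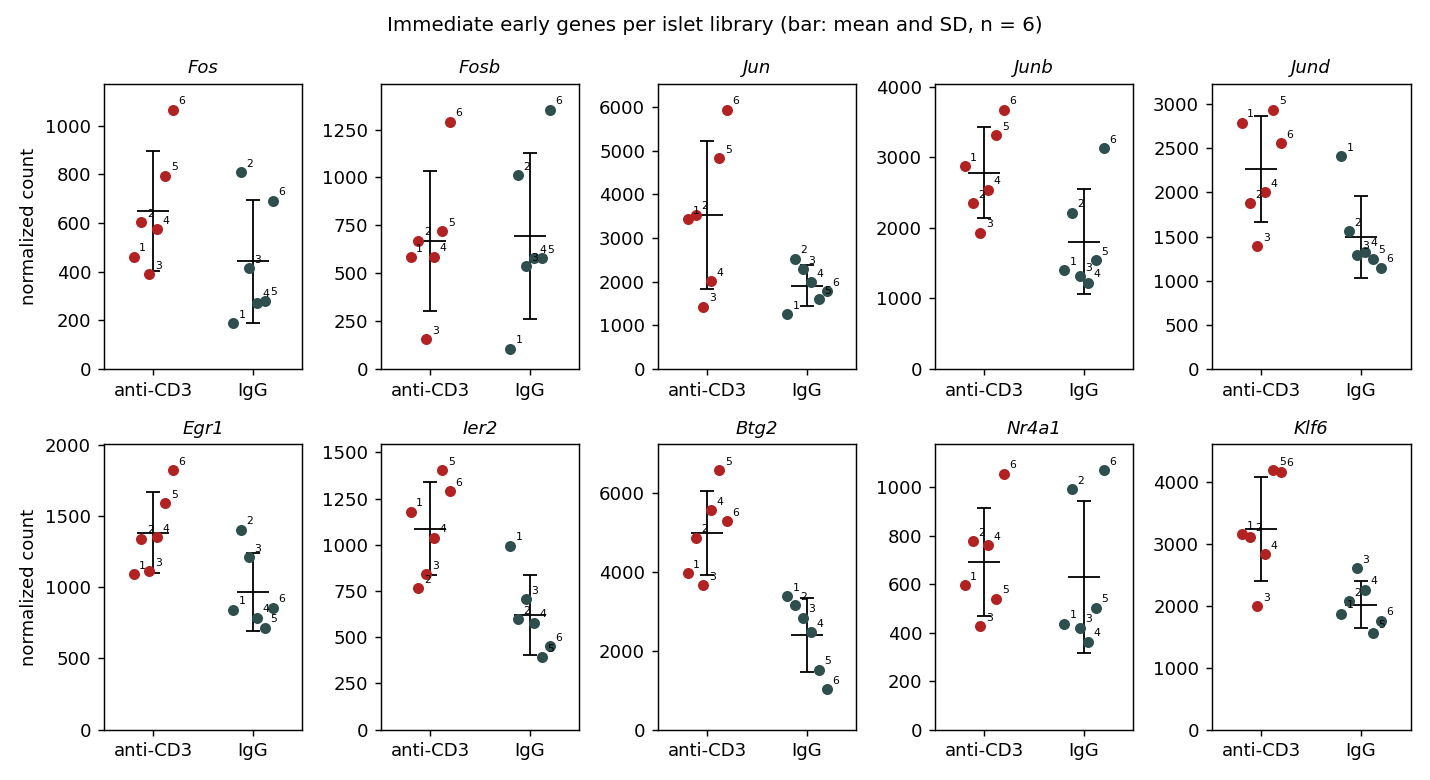
Normalized count (vertical axis) of each of the 10 genes in 6 anti-CD3 libraries (left, red) and 6 IgG libraries (right, dark), with library numbers beside the points and a bar for mean and SD. Btg2 is the gene whose groups do not overlap, with anti-CD3 at or above 3671 and IgG at or below 3393, while Fosb and Nr4a1 have their highest library in IgG.

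The Fos proteins cannot bind DNA alone and need a Jun partner. Fos had a lowest normalized count of 390 (389.6), a median of 589 and a highest of 1067 in anti-CD3, against 189, 347 and 810 in IgG. Each of the 6 anti-CD3 libraries exceeded the median of IgG, but only anti-CD3 6 exceeded the highest IgG library. The log2 fold change was 0.55 ± 0.36 (SE, n = 6 per group; edgeR adjusted p = 0.423). Fosb, a paralog that also yields the stable splice form ΔFosB, ran from 155 over a median of 628 to 1292 in anti-CD3, and from 104 over 579 to 1354 in IgG. The groups covered nearly the same range, and the fold change was -0.06 ± 0.52 (SE; edgeR adjusted p = 0.964). The sign of this small value turned without IgG 6 (0.24) and without IgG 5 and IgG 6 (0.25).

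Jun, the classical partner of Fos and a target of the stress kinase JNK, ran from 1427 over a median of 3486 to 5947 in anti-CD3, against 1259, 1889 and 2529 in IgG. In 4 of 6 anti-CD3 libraries it exceeded every IgG library, while anti-CD3 3 and anti-CD3 4 lay inside the IgG range. Its fold change was 0.88 ± 0.30 (SE, n = 6 per group; edgeR adjusted p = 0.159). Its spread was wider in anti-CD3, with a coefficient of variation of 47.9% against 24.2% in IgG. Junb, which pairs with Fos proteins but activates transcription more weakly than Jun, ran from 1929 over 2707 to 3675 in anti-CD3, against 1219, 1470 and 3132 in IgG. The overlap came from IgG 6 and IgG 2, and the other 4 IgG libraries lay below the lowest anti-CD3 library. Its fold change was 0.63 ± 0.24 (SE; edgeR adjusted p = 0.190), and it was 0.85 without IgG 6 and 0.85 ± 0.21 when both IgG 5 and IgG 6 were left out (SE; edgeR adjusted p = 0.238). Adjusted for the acinar score it was 1.01 ± 0.24 (SE; edgeR adjusted p = 0.410). Jund, the Jun protein that most resting cells already contain, ran from 1393 over 2282 to 2939 in anti-CD3, against 1149, 1311 and 2410 (2409.7) in IgG. IgG 1 alone reached the upper part of the anti-CD3 range. The fold change of Jund was 0.59 ± 0.22 (SE; edgeR adjusted p = 0.179). That value was 0.45 without IgG 5 and IgG 6 and 0.41 when adjusted for the acinar score.

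Egr1 is a zinc finger factor induced through SRF and its partners. It ran from 1090.1 over 1346 to 1822 in anti-CD3, against 715, 849 and 1405 in IgG, and 4 of 6 IgG libraries lay below the lowest anti-CD3 library. Its fold change was 0.52 ± 0.19 (SE, n = 6 per group; edgeR adjusted p = 0.185). That value was 0.38 without IgG 5 and IgG 6 and 0.37 when adjusted for the acinar score. Klf6, a zinc finger factor of the Krüppel-like family, ran from 1992 over 3135 to 4189 in anti-CD3, against 1556, 1972 and 2608 in IgG. All but anti-CD3 3 exceeded every IgG library. Its fold change was 0.68 ± 0.19 (SE; edgeR adjusted p = 0.102; DESeq2 adjusted p = 0.0253). Without IgG 5 and IgG 6 the value of Klf6 was 0.55 ± 0.20 (SE; edgeR adjusted p = 0.331). Adjusted for the acinar score it was 0.49 ± 0.20 (SE; edgeR adjusted p = 0.492). Nr4a1, the orphan nuclear receptor Nur77 that is induced by T cell receptor signals and by calcium in beta cells, ran from 427 over 678 to 1056 in anti-CD3, against 362, 470 (469.8) and 1069 in IgG. IgG 6 and IgG 2 held 2 of the 3 highest values, the groups overlapped over almost their whole range, and the fold change was 0.14 ± 0.30 (SE; edgeR adjusted p = 0.830). It was 0.34 without IgG 6, 0.53 ± 0.33 when adjusted for the acinar score (SE; edgeR adjusted p = 0.676) and -0.01 without anti-CD3 6.

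Btg2, an antiproliferative protein that recruits the mRNA deadenylase complex and is also a p53 target, had the largest fold change of the 10. It ran from 3671 over a median of 5082 to 6586 in anti-CD3, against 1029, 2663 and 3393 in IgG. The groups did not overlap, which on this scale was so for 1.09% of the deposited genes in the higher direction. On log2 CPM Btg2 was likewise the 1 member without overlap, where 1.2% of the genes tested were higher and 0.64% lower without overlap. The mean was 4994 ± 1075 in anti-CD3 and 2404 ± 940 in IgG (SD, n = 6 each), and the log2 fold change was 1.05 ± 0.26 (SE; edgeR adjusted p = 0.0859; DESeq2 adjusted p = 0.00822; limma-voom adjusted p = 0.0498). The 2 lowest values belonged to IgG 5, with 1519, and IgG 6, with 1029, the libraries of lowest acinar share. Without them the fold change was 0.75 ± 0.18 (SE; edgeR adjusted p = 0.223), and adjusted for the acinar score it was 0.61 ± 0.22 (SE; edgeR adjusted p = 0.442). Ier2, a short-lived nuclear protein of the immediate early response, ran from 764 over 1110 (1109.9) to 1404 in anti-CD3, against 392, 588 and 996 in IgG. In 5 of 6 IgG libraries it was below the lowest anti-CD3 library, the exception being IgG 1. Its fold change was 0.81 ± 0.22 (SE; edgeR adjusted p = 0.100; DESeq2 adjusted p = 0.0254). Without IgG 5 and IgG 6 the value of Ier2 was 0.59 ± 0.20 (SE; edgeR adjusted p = 0.321). Adjusted for the acinar score it was 0.55 ± 0.24 (SE; edgeR adjusted p = 0.537).

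**Figure D2:**
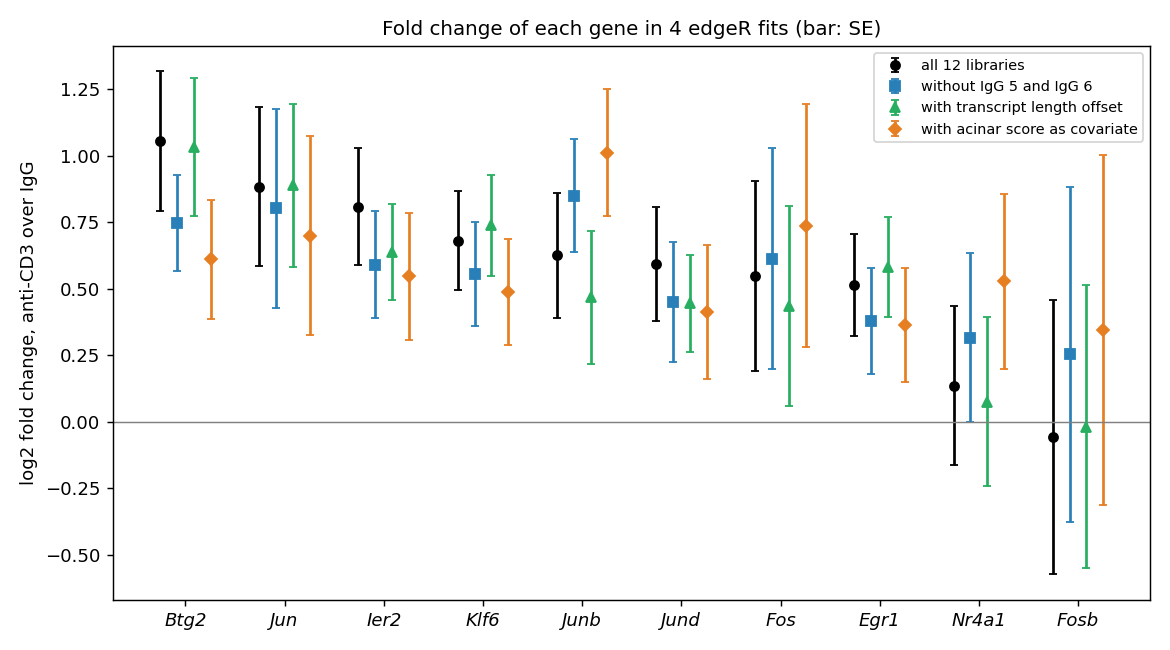
Log2 fold change (vertical axis, anti-CD3 over IgG, bars are SE) of each gene, ordered by its value over all 12 libraries, in 4 edgeR fits. Btg2, Ier2 and Jund have smaller values without IgG 5 and IgG 6 (0.75, 0.59 and 0.45), while Junb, Nr4a1 and Fosb have larger ones (0.85, 0.32 and 0.25).

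The markers of other cells had these values. Of the acinar genes, 33 of 34 tested had positive fold changes (median 0.72), and 0 passed edgeR (13 higher at an unadjusted p under 0.05, 3 with DESeq2). Acinar genes had a mean log2 CPM that ran from 12.33 to 12.79 in anti-CD3 and from 9.83 to 12.51 in IgG. All 16 tested T cell markers had negative fold changes, with a median of -1.24 (0 passed edgeR, 5 lower at an unadjusted p under 0.05, 0 with DESeq2), and their mean log2 CPM ran from -1.18 to 2.17 in anti-CD3 and from -0.91 to 3.83 in IgG. The T cell median was -0.30 without IgG 5 and IgG 6 and 0.18 when adjusted for the acinar score. All 6 tested regenerating protein genes, of the Reg family, were higher by DESeq2 (median 2.72, and 1.30 when adjusted for the acinar score), although 0 passed edgeR (6 higher at an unadjusted p under 0.05). All 10 stromal genes had negative values (median -1.01), of which 3 were lower by DESeq2 and 0 by edgeR (5 lower at an unadjusted p under 0.05). The 6 B cell genes (median -1.34) and the 10 macrophage genes (median -0.62) were all negative too, with 0 passing edgeR or DESeq2 (0 of the B cell and 1 of the macrophage genes lower at an unadjusted p under 0.05). Without IgG 5 and IgG 6 their medians were 0.47 for B cells and 0.02 for macrophages. The median of the 10 members was 0.54 when adjusted for the acinar score, 0.57 without IgG 5 and IgG 6, and 0.53 with an offset for transcript length. The part of the acinar, regenerating protein, stromal and immune content in the single fold changes was not tested beyond these fits.

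**Figure D3:**
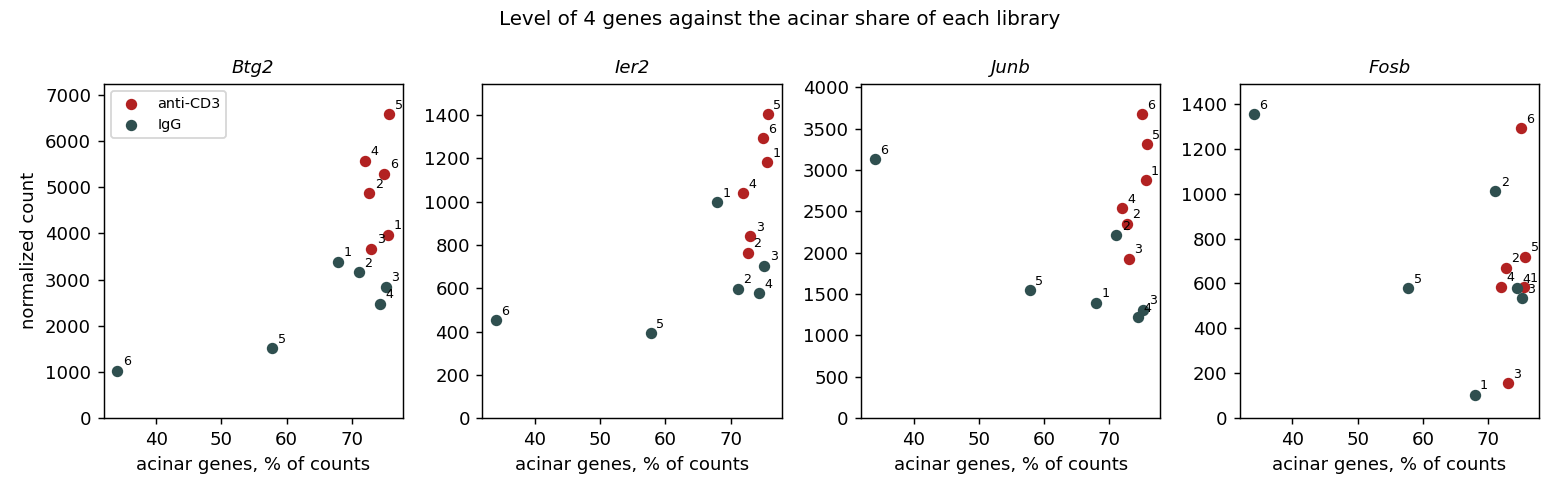
Normalized count of 4 members (vertical axis) against the share of counts in acinar genes (horizontal axis, percent) for each library, anti-CD3 in red and IgG dark, numbered by library. IgG 6, at 34.1%, is the lowest library for Btg2 and the highest for Fosb, and IgG 5, at 57.8%, is the lowest for Ier2.

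Per kilobase of merged exon, which allows genes to be set side by side, Btg2 had the highest level in anti-CD3, 1821 ± 392 normalized counts per kb, and the second highest in IgG, 876 ± 343 (SD, n = 6 each). Jund had 1355 ± 360 in anti-CD3 and 898 ± 280 in IgG, Junb 1208 ± 279 in anti-CD3 and 784 ± 322 in IgG, and Jun 1107 ± 530 in anti-CD3 and 599 ± 145 in IgG (SD). Neighbours among Jund, Junb and Jun differed by less than the larger of their SDs in both groups. Klf6 stood at 738 ± 191 in anti-CD3 and 460.3 ± 85.9 in IgG, and Ier2 at 714 ± 166 in anti-CD3 and 408 ± 141 in IgG (SD), which also differed by less than their spread. Egr1 had 309 ± 63 in anti-CD3 and 216 ± 61 in IgG, and Fos 276 ± 105 in anti-CD3 and 188 ± 107 in IgG (SD). Nr4a1, at 197 ± 63 in anti-CD3 and 179.8 ± 89.5 in IgG, and Fosb, at 107 ± 59 in anti-CD3 and 111 ± 69 in IgG, had the lowest levels (SD). Neighbours among Egr1, Fos and Nr4a1 also differed by less than the larger SD in both groups. With the longest transcript as the length, Junb came above Jund, at 1537 in anti-CD3 and 997 in IgG. In IgG Junb then also came above Btg2 (876). By that length Fosb stood at 176 in anti-CD3 and 183 in IgG, still the lowest. Nr4a1, at 247 in IgG, then came above Egr1 (216) and Fos (210) there. The order of the genes thus depends in part on the length used.

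Among the 5 member AP-1 genes the 3 Jun genes made up most of the transcripts. Other AP-1 genes that were counted, such as Atf3 and Fosl2, are not part of these shares. Of the 5 member AP-1 genes, per kb, Jun, Junb and Jund together took 90.7% ± 1.7 in anti-CD3 and 88.9% ± 4.6 in IgG (SD, n = 6 each). Fos took 6.81% ± 1.20 in anti-CD3 and 6.98% ± 2.83 in IgG. Fosb took 2.49% ± 0.88 in anti-CD3 and 4.17% ± 2.06 in IgG, a difference smaller than the IgG spread. These shares depend on the length used: Fosb has 6243 bases of merged exon and a longest transcript of 3782 bases. Shares by the longest transcript were not computed. The shares spread more widely in IgG: Jund took 27.1% to 39.0% in anti-CD3, and 22.1% (IgG 6) to 56.8% (IgG 1) in IgG.

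**Figure D4:**
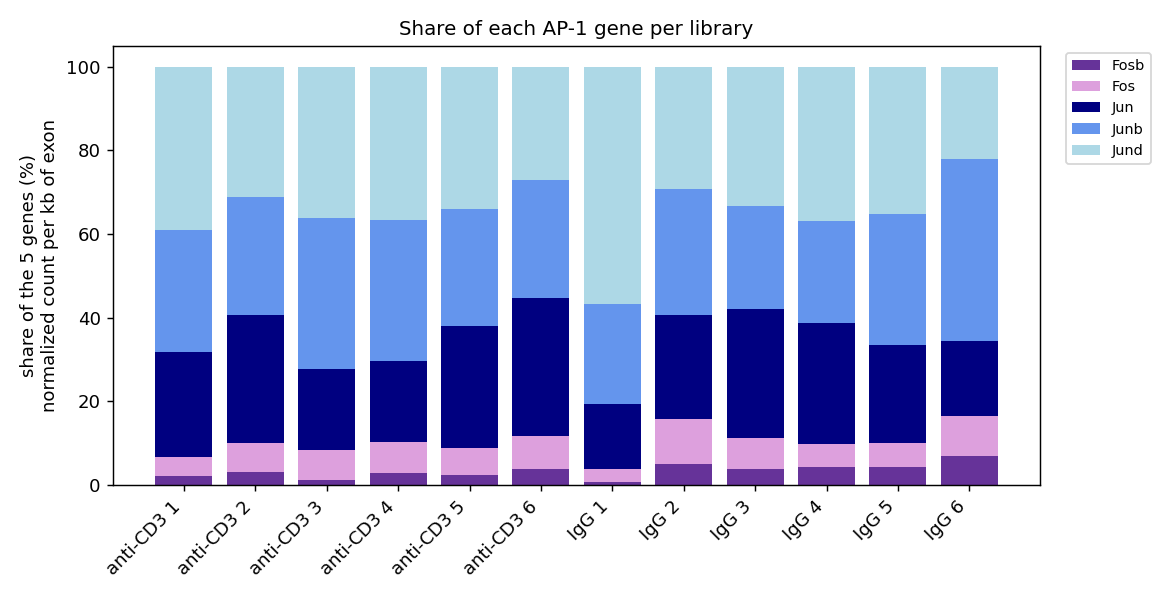
Share of each of the 5 AP-1 genes in their summed level per kb of exon (vertical axis, percent) in each anti-CD3 and IgG library. Fos and Fosb together take 6.75% to 11.7% in anti-CD3 libraries and 3.82% to 16.4% in IgG libraries.

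With group means removed, 34 of 45 pairs had a positive Pearson r over the 12 libraries (median 0.43, from -0.34 to 0.86), and 8 passed after Benjamini-Hochberg adjustment over the 45 pairs (permutation test within groups). The same shares for pairs of other genes were not computed, so these counts do not show a trait particular to the members. Over the 6 anti-CD3 libraries alone all 45 pairs had a positive r (0.13 to 0.98), and over the 6 IgG libraries r ran from -0.85 to 0.97. Fos and Fosb had r = 0.84 (permutation p = 4e-04, adjusted p = 0.018) and rho = 0.82 (permutation p = 0.00365, adjusted p = 0.0411), and r = 0.79 without IgG 1 and IgG 2, the libraries farthest from the Fos median. Junb and Nr4a1 had r = 0.84 (permutation p = 0.00443, adjusted p = 0.0339) and rho = 0.87 (permutation p = 0.00154, adjusted p = 0.0231), and r = 0.71 without IgG 6 and anti-CD3 6. Jun and Klf6 had r = 0.86 (permutation p = 0.00133, adjusted p = 0.0252) and rho = 0.86 (permutation p = 0.0014, adjusted p = 0.0231), and r = 0.71 without anti-CD3 3 and anti-CD3 6. Jund and Ier2 had r = 0.83 (permutation p = 0.00168, adjusted p = 0.0252) and rho = 0.85 (permutation p = 0.00136, adjusted p = 0.0231), and r = 0.65 without IgG 1 and anti-CD3 5. The other 4 were Fos with Nr4a1 (r = 0.82), Junb (0.80) and Jun (0.67), and Fosb with Jun (0.73). By rank, Fos with Junb (rho = 0.78) and Fos with Jun (rho = 0.71) each had an adjusted permutation p of 0.04695. Fos with Nr4a1 (rho = 0.75, adjusted permutation p = 0.0607) and Fosb with Jun (rho = 0.57, adjusted permutation p = 0.147) did not pass by rank. Fosb with Jun had r = 0.43 without IgG 1 and anti-CD3 3, and so rested on those libraries.

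All 6 pairs among Fos, Fosb, Junb and Nr4a1 had r from 0.70 to 0.84, and all 3 pairs among Jund, Ier2 and Btg2 from 0.60 to 0.83, while the 12 pairs between these sets ran from -0.34 to 0.15 and 0 of them passed. Without IgG 6 the pairs between the sets ran from -0.20 to 0.53, and those within them from 0.63 to 0.81 and from 0.57 to 0.81, so the low values between the sets rested in part on that library. Both sets were picked after their values were seen, and their ranges are a description. The mean log2 CPM of Fos, Fosb, Junb and Nr4a1 was highest in anti-CD3 6 (6.67) and IgG 6 (6.48) and lowest in anti-CD3 3 (5.04) and IgG 1 (4.50). That of Jund, Ier2 and Btg2 was highest in anti-CD3 5 (7.66) and lowest in IgG 6 (5.77) and IgG 5 (5.95). IgG 6 thus stood near the top of one set and at the bottom of the other. Anti-CD3 6 was among the top 3 libraries for 10 of 10 members and anti-CD3 5 for 8, while IgG 5 was among the bottom 3 for 7.

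**Figure D5:**
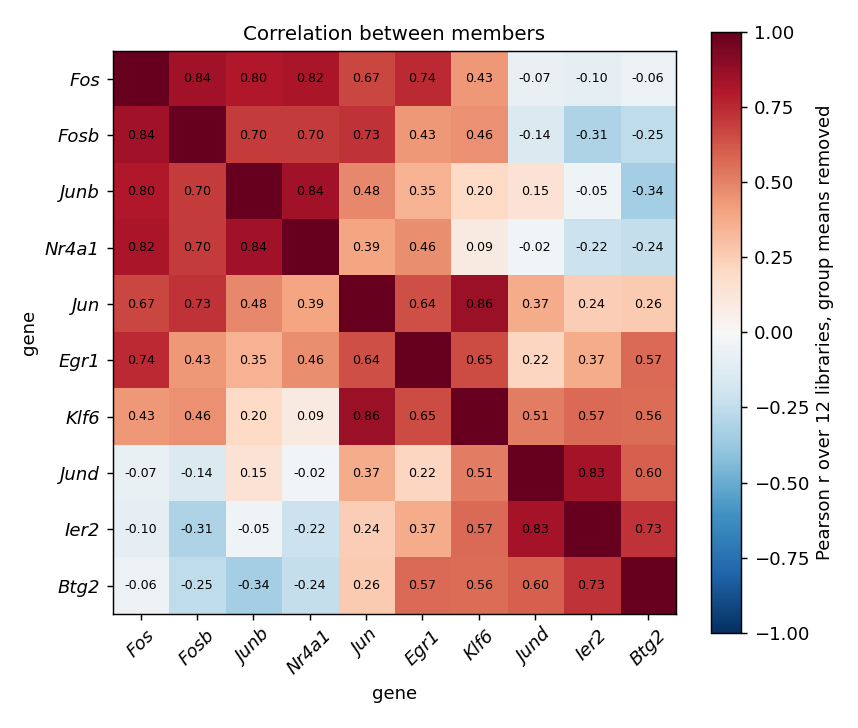
Pearson r between each pair of the 10 genes over 12 libraries, on log2 CPM with the group means removed (colour from -1 to 1, values printed). Fos, Fosb, Junb and Nr4a1 at one corner and Jund, Ier2 and Btg2 at the other form blocks of positive r, with r from -0.34 to 0.15 between them.

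By the same measure the gene most like the mean of the 10 members was Zfp36, itself an immediate early gene, whose product tristetraprolin speeds the decay of AU-rich mRNAs, at r = 0.96 over 12 libraries. It was followed by Sbno2, Gadd45g, Pim3, Atf7ip, Ugcg, Rhob and Pde4d, between 0.81 and 0.79. Without IgG 6, only Zfp36 (0.97) and Ugcg (0.85) of the 8 stayed among the closest 8. Zfp36 was at 0.40 ± 0.30 between the groups (SE; edgeR adjusted p = 0.473), and the kinase gene Pim3 at 0.54 ± 0.17 (SE; edgeR adjusted p = 0.144).

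Of the 41 other immediate early genes tested, 30 had positive values, with a median of 0.21. By edgeR 0 passed, 7 were higher and 0 lower at an unadjusted p under 0.05, and DESeq2 called 2 as higher. These 2 were Gadd45a, a growth arrest and DNA damage gene, at 1.20 ± 0.24 (SE; edgeR adjusted p = 0.0659), and Plk2, a polo-like kinase, at 0.59 ± 0.16 (SE; edgeR adjusted p = 0.0996). Mcl1, the highest of this list in mean log2 CPM and an antiapoptotic BCL-2 relative, was at 0.19 ± 0.13 (SE; edgeR adjusted p = 0.434).

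Of the further AP-1 and bZIP genes 3 of 11 had positive values, with a median of -0.13 (0.14 when adjusted for the acinar score), and 0 passed edgeR (1 higher and 1 lower at an unadjusted p under 0.05, and the same 2 with DESeq2). Atf3, a stress-induced repressor that can pair with Jun, was at 1.59 ± 0.32 (SE; edgeR adjusted p = 0.0659; DESeq2 adjusted p = 2.86e-04). Fosl1, the Fos relative Fra-1, was at -1.07 ± 0.21 (SE; edgeR adjusted p = 0.0646; DESeq2 adjusted p = 0.00115), opposite in sign to Fos.

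Of 26 genes upstream of the members, for SRF, its partners, CREB and MAP kinases, 9 had positive values. Their median was -0.14, against -0.08 without IgG 5 and IgG 6 and -0.02 when adjusted for the acinar score, and 0 passed edgeR or DESeq2 (0 higher and 4 lower at an unadjusted p under 0.05). Elk3, an SRF partner, was at -0.49 ± 0.17 (SE; edgeR adjusted p = 0.164) and Camk4, a calcium-dependent kinase, at -1.51 ± 0.58 (SE; edgeR adjusted p = 0.200). Mapkapk2, the highest of them in mean log2 CPM and a kinase downstream of p38, was at 0.17 ± 0.15 (SE; edgeR adjusted p = 0.540). Of 20 feedback inhibitors 8 had positive values, with a median of -0.09 that was 0.12 without IgG 5 and IgG 6 and 0.18 when adjusted for the acinar score, and with 0 passing edgeR or DESeq2 (1 higher and 1 lower at an unadjusted p under 0.05). The MAP kinase phosphatase gene Dusp8 was at 0.70 ± 0.23 (SE; edgeR adjusted p = 0.153), Spred1, an inhibitor of RAS signalling, at -0.58 ± 0.25 (SE; edgeR adjusted p = 0.244) and Errfi1, an inhibitor of EGF receptor signalling, at 0.28 ± 0.20 (SE; edgeR adjusted p = 0.450).

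A list of genes induced by beta cell activity, which shares 5 genes with the 10 members (Fos, Fosb, Junb, Egr1 and Nr4a1), had 12 of 19 tested genes with positive values and a median of 0.09, which was 0.23 without IgG 5 and IgG 6 and 0.35 when adjusted for the acinar score. By edgeR and by DESeq2 0 passed, and the 2 higher at an unadjusted p under 0.05 were Egr1 and Junb. Scg2, a granule protein gene and the highest of that list in mean log2 CPM, was at 0.12 ± 0.20 (SE; edgeR adjusted p = 0.777). Heat shock genes, which also respond to tissue dissociation, had 9 of 14 higher and a median of 0.14 (-0.11 when adjusted for the acinar score), with 0 passing edgeR (1 higher and 2 lower at an unadjusted p under 0.05, 1 lower with DESeq2). Hsp90ab1, a constitutive HSP90, was at -0.43 ± 0.14 (SE; edgeR adjusted p = 0.140; DESeq2 adjusted p = 0.0214). Hspa5, the endoplasmic reticulum chaperone BiP and the highest of the list in mean log2 CPM, was at 0.51 ± 0.19 (SE; edgeR adjusted p = 0.179). The mean log2 CPM of the heat shock list ran from 6.32 to 7.10 in anti-CD3 and from 5.81 to 6.87 in IgG. Its lowest library was IgG 1 and its highest anti-CD3 6, which were also the lowest and the highest for Fos and for Jun. For Jund, Ier2 and Btg2, in contrast, IgG 1 was the highest of the IgG libraries. Between the extremes the heat shock mean and Fos did not keep the same order. IgG 4 had a heat shock mean of 6.80 with 272 normalized Fos counts, and IgG 6 had 6.25 with 693. IgG 2, with 6.87, had 810. The part of tissue dissociation in the differences was not tested.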

How the data were processed

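Paired-end reads of 12 islet libraries were processed by the authors. Per the submitters' processing notes, which give no order or options, the tools were STAR 2.5.2b, Trimmomatic 0.36, DESeq2 and featureCounts (Subread 1.5.2), with the build GRCm38 (mm10). The authors deposited whole-number counts for 49315 genes. Their comparison table holds a normalized signal (counts divided by 1 size factor per library, checked against the count table), log2 fold changes (anti-CD3 over IgG) and p-values from the authors, per the file headers and values; the adjusted p is NA for 2935 genes. The name of the anti-CD3 5 count column has a prefix that is not explained.

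Groups came from the sample titles. Members and lists were chosen with earlier results of these data known. Counts were fitted in R 4.3.3 with edgeR 4.0.16 (filterByExpr, minimum count 10 and minimum total 15, which left 13115 genes; TMM, factors 0.733 to 2.36; robust quasi-likelihood F test, two-sided, Benjamini-Hochberg over all genes). All 10 members passed the filter. SE is the fold change divided by the root of F. Log2 CPM used a prior count of 2. Correlations used 100000 permutations within groups. Symbols and lengths came from GENCODE M21 (48970 genes) and the deposited table (17 genes). Named genes were the members, the 2 with the smallest p and the highest in mean log2 CPM of each list, 8 genes most like the members' mean (mean log2 CPM at least 3), and markers. Log2 CPM is not corrected for gene length.

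Alternatives were DESeq2 1.42.0, limma-voom (limma 3.58.1) with quality weights, upper-quartile or RLE factors, TMM without marker genes, 2 other filters, no robust estimation, a replicate block, an acinar covariate, a length offset (lowess span 0.3), and libraries left out. The fit was tested on simulated data, where it called 42.4% of the 2-fold changes put in. A gene that did not pass may therefore still differ by that much.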

Additional observations from a re-analysis of the deposited data

Results flagged for a closer look

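Among the 10 members in both groups, 20 sets of 6 values in all, Jund in IgG had 1 library far from the others: IgG 1, with 2409.7 normalized counts, while the other 5 IgG libraries lay between 1149 and 1558. Chance alone flags about 1 in 20 such sets. Without IgG 1 the log2 fold change of Jund was 0.80.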

How the results depend on the processing

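The number of genes called over all genes was 10 in the main edgeR fit, 469 with DESeq2, 44 with limma-voom, 167 with no filter on low counts, 6 with upper-quartile factors, 5 without robust estimation, 4 with the length offset, 1 when IgG 5 and IgG 6 were omitted, and 0 with the replicate block or the acinar covariate. With 1 library omitted the number was 0 (without anti-CD3 1, anti-CD3 5, anti-CD3 6 or IgG 5) to 203 (without anti-CD3 2). Of the 10 members 0 passed edgeR, and 3 passed with DESeq2, 1 with limma-voom and 2 (Btg2 and Ier2) with no filter on low counts, where 0.49% of genes were called higher; in the other 9 fits and all 12 omissions of a library 0 passed. The median of the members lay between 0.53 and 0.71 in all alternatives. Fosb turned positive with the replicate block (0.0223), the acinar covariate (0.34) and the omission of IgG 5 and IgG 6 (0.25), and ran from -0.35 (without anti-CD3 6) to 0.24 (without IgG 6) with 1 library left out. Nr4a1 ran from -0.0136 to 0.34 with 1 library left out, and Fos from 0.36 (without anti-CD3 6) to 0.81 (without IgG 2). Of the 8 genes most like the members' mean, 2 remained without IgG 6. The causes were not tested. The replicate numbers share no stated source. Libraries of the same number had correlations from -0.29 to 0.55, which does not settle whether the numbers mark pairs. The lowest count of a member in a library was 128, for Fosb in anti-CD3 3.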

Other observations

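The 12 pairs that join Fos, Fosb, Junb or Nr4a1 with Jund, Ier2 or Btg2 had r from 0.13 to 0.89 over the 6 anti-CD3 libraries and from -0.85 to -0.24 over the 6 IgG libraries. Within groups 0 of these passed after adjustment over 90 relations (exact permutation test, smallest adjusted p = 0.171 in anti-CD3 and 0.246 in IgG; rho from -0.03 to 0.89 and from -0.71 to -0.26), and the smallest p that 6 libraries allow is 0.00139. Without the 2 libraries farthest from the median of the first gene, 10 of 12 were positive in anti-CD3 and 5 of 12 in IgG, while the other 7 stayed negative in IgG. The difference between the groups was not tested, and the pairs were chosen after their values were seen. In IgG, IgG 6 had the highest Fosb (1354 normalized counts) and the lowest Btg2 (1029), with a Ptprc level of 2339, the highest of the 12 libraries.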
